A study of Mus musculus with 12 samples.

Results

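The 10 genes described here carry glucose into cells, break it down to pyruvate and exchange lactate between cells: the glucose transporters Slc2a1 and Slc2a3, the phosphofructokinases Pfkm and Pfkp, the aldolase Aldoa, the phosphoglycerate kinase Pgk1, the enolase Eno2, the lactate dehydrogenases Ldha and Ldhb, and the monocarboxylate transporter Slc16a1. A probe set was counted to a gene where the platform annotation gave it exactly 1 symbol and that symbol was the gene's. This gave 27 probe sets for the 10 genes, among 45037 probe sets tested and 18193 genes with a named probe set. Aldoa had 5 probe sets, Ldhb and Slc2a3 had 4 each, Pfkp, Pgk1 and Slc2a1 had 3 each, Slc16a1 had 2, and Pfkm, Eno2 and Ldha had 1 each. The rule that assigns probe sets uses no measured value, but the genes were chosen with earlier results of these data known.

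The arrays came from untreated mice aged 2 months, either wild type or Gdap1 knockout, in which exon 5 of Gdap1 is deleted. The Gdap1 protein sits in the outer membrane of mitochondria. For each genotype, 3 arrays measured whole sciatic nerve lysate and 3 measured motoneurons cut out of tissue by laser, and the labels call the 3 arrays of a group biological replicates. The design text speaks of RNA from 5 mice, of which samples were chosen by amount and quality of RNA, and the labels do not say whether a nerve array and a motoneuron array share a mouse, nor the strain or sex.

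The nerve lysate was bulk tissue, so its RNA pools Schwann cells, fibroblasts, vessels, fat and any muscle left on the nerve, and fewer cells of a type cannot be told apart from less RNA per cell. The probe sets for Gdap1 lie in exons 4 and 6, outside the deleted exon, and so do not check the knockout. Mean marker levels separated the tissues as labelled. Of the motoneuron markers, Chat did not, at 4.19 to 5.30 on motoneuron and 4.96 to 5.36 on nerve arrays, while the others were higher on all motoneuron arrays. The mean log2 value of 12 motoneuron markers ran from 11.72 to 12.06 on the motoneuron arrays and from 6.85 to 7.33 on the nerve arrays, while 6 Schwann cell markers averaged 14.00 to 14.30 on nerve and 6.80 to 7.14 on motoneuron arrays. The nerve arrays also held 18 skeletal muscle markers at means between 7.97 and 12.89 and 4 adipocyte markers at means between 12.96 and 14.04. The motoneuron arrays held 10 astrocyte markers at means between 9.33 and 10.03 and 10 oligodendrocyte markers at means between 10.78 and 11.84. On the nerve arrays the same lists had means of 9.31 to 9.90 and of 10.11 to 10.39. The mean of these lists is therefore not a measure of astrocytes or oligodendrocytes alone, and it averages members that went opposite ways. As deposited, Mog, Opalin, Mobp, Cldn11, Ermn, Gfap, Aqp4 and Slc1a2 were higher on all motoneuron arrays than on all nerve arrays. Mog, for example, read 11.12 to 12.31 against 4.1 to 5.26. Mag, Cnp, Ugt8a, Aspa, Mal, Slc1a3, Aldh1l1, Gja1, Slc4a4 and S1pr1 were lower on all motoneuron arrays, and Gjb6 and Fgfr3 overlapped. The part of glial RNA in the motoneuron levels was not tested.

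Glycolysis begins when a transporter of the Slc2a family lets glucose across the plasma membrane, passes the committed step at phosphofructokinase, and ends in pyruvate. Lactate dehydrogenase interconverts pyruvate and lactate as a tetramer of A subunits (Ldha), which are typical of tissues that make lactate, and B subunits (Ldhb), which are typical of tissues that oxidize it. In nervous tissue, glia are thought to release lactate through monocarboxylate transporters such as Slc16a1 (MCT1), and axons to take it up as fuel. Several of these genes are textbook targets of the hypoxia-inducible factors, which bind a short core sequence in promoters.

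Promoter windows are shown for 5 genes because they set side by side genes whose level was lower in motoneurons than in nerve as deposited (Ldha, Slc2a1 and Slc16a1) and genes whose level was higher (Ldhb and Pfkp), as described further on. Each is the 250 bases before an annotated start in RefSeq, assembly GRCm38.p6, written 5′ to 3′ in the direction of the gene, with capitals at each match to the core ACGTG or GCGTG on either strand.
Ldha, chr7:46845554-46845803, plus strand: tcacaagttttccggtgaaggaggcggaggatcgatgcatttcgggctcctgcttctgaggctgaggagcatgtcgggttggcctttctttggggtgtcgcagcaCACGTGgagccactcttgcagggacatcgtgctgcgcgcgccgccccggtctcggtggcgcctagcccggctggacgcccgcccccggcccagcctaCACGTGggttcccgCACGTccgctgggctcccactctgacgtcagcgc
Slc2a1, chr4:119108495-119108744, plus strand: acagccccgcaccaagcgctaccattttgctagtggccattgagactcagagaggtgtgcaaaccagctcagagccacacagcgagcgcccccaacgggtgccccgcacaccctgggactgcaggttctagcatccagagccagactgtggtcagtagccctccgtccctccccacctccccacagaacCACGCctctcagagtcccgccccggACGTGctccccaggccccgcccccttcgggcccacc
Slc16a1, chr3:104638414-104638663, plus strand: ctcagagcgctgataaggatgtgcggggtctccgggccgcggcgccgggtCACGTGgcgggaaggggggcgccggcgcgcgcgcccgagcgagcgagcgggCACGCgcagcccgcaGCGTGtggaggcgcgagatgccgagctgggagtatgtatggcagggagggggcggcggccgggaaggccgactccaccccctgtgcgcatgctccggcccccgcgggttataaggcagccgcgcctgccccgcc
Ldhb, chr6:142507958-142508207, minus strand: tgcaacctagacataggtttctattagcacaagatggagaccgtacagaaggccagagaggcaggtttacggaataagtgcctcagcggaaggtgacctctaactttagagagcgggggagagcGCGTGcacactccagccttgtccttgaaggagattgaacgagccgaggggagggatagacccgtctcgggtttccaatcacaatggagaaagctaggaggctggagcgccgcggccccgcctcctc
Pfkp, chr13:6648772-6649021, minus strand: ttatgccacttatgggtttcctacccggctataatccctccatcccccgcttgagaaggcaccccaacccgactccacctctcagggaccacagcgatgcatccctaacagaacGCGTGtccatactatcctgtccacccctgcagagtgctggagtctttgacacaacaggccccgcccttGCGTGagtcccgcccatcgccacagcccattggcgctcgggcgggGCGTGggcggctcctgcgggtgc

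RefSeq gave 2 windows for Ldha. The one shown held 5 matches, of which 4 came from 2 copies of CACGTG, where the core reads on both strands and so counts on each, and the other, chr7:46846832-46847081, held 1 match and no CACGTG. The Slc16a1 window held 4 matches, 2 of them from 1 copy of CACGTG. The Pfkp window held 3 matches, Slc2a1 2 and Ldhb 1. The core was present in 38.6% of all 32851 RefSeq windows of this length. Windows were given for 9 of the 10 genes, Slc2a3 having no entry, and 12 of their 15 windows held the core, covering 8 of the 9 genes. Eno2 was the gene without a match in its window. The windows are not independent: 2 of the Aldoa windows overlap and hold the same match, and 2 overlapping windows of Pfkm share a match. A gene with several windows has more chances of a match. The count of genes is therefore not comparable with the share of all windows. The share of G and C in these 15 windows ran from 36.4% to 76.4%, against a median of 52.4% over all windows. CACGTG itself was present in 6.02% of all windows, and the GC box GGGCGG, searched on both strands, in 32.7%. A match is a string of letters and not a measured binding site, and the core was found in windows of genes that were lower and of genes that were higher in motoneurons as deposited. With medians centred that grouping does not hold, since Slc16a1 was then higher and Ldha and Slc2a1 did not pass.

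Values throughout are the authors' log2 expression values, on which a difference of 1 is 2-fold. The arrays of a tissue had nearly the same distribution, with medians of 8.29 to 8.40 in nerve and 6.53 to 6.59 in motoneurons, so the tissues were read as normalized apart. A tissue difference therefore depends on how the tissues are put on a common scale. It is given first as deposited, then with each array centred on its median, then with the arrays quantile normalized together, and is accompanied by the percentile that a probe set held among all probe sets of its array. The tissues also differed in the RNA column kit, which cannot be told apart from the tissue. Where a gene has several probe sets, the one with the highest mean over the 12 arrays leads.

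The leading probe sets of all 10 genes were bright in both tissues, with mean percentiles of 70.6 to 99.7 in nerve and of 91.9 or above in motoneurons. As deposited, 6 of the 10 leading probe sets were higher in motoneurons than in nerve in both genotypes, those of Slc2a3, Pfkm, Pfkp, Pgk1, Eno2 and Ldhb, and 4 were lower, those of Slc2a1, Aldoa, Ldha and Slc16a1. Of the 27 probe sets, 14 passed as higher and 11 as lower in wild type (limma, Benjamini-Hochberg adjusted p under 0.05 over all probe sets), against 14.3% and 67.9% of all probe sets. In the knockout, 14 passed as higher and 10 as lower, against 15.2% and 67.5%. These shares are not matched for brightness, and the gap between the tissues was narrower among bright probe sets. Array medians were 8.29 to 8.40 in nerve and 6.53 to 6.59 in motoneurons, but the highest values were 15.52 to 15.55 and 15.16 to 15.22. How much of the contrast with all probe sets comes from the brightness of the 10 genes was not tested. All 27 probe sets had the same sign in both tissue comparisons, though 1421924_at of Slc2a3 differed by only -0.033 in the knockout. The 2 comparisons use different arrays but share the offset between the tissues, so like signs are not independent evidence. The share of all probe sets with like signs was not computed.

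The median difference of the 27 probe sets was 0.14 in wild type and 0.16 in the knockout, while that of all probe sets was -1.09 and -1.04. With medians centred, these became 1.90 and 1.93 for the 27 and 0.67 and 0.74 for all, and 22 of the 27 passed as higher and 1 as lower in each genotype. With arrays quantile normalized together, they became 0.67 and 0.73 against 0.15 and 0.16, and 20 passed as higher and 5 as lower in wild type, 19 and 5 in the knockout. Among all probe sets that passed in wild type, the share that was higher in motoneurons was 17.4% as deposited, 69.0% with medians centred and 54.6% after joint quantile normalization. In the knockout it was 18.4%, 69.5% and 54.7%. These are shares of the calls. Of all 18193 genes, by leading probe set, 61.2% passed as higher and 20.0% as lower in wild type with medians centred. In the knockout 63.1% and 20.5% did. After joint quantile normalization the shares were 43.1% and 30.6% in wild type and 44.5% and 31.8% in the knockout. Of the 10 leading probe sets, 8 passed as higher and 0 as lower with medians centred in each genotype. After joint quantile normalization, 7 and 3 did.

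**Figure D1:**
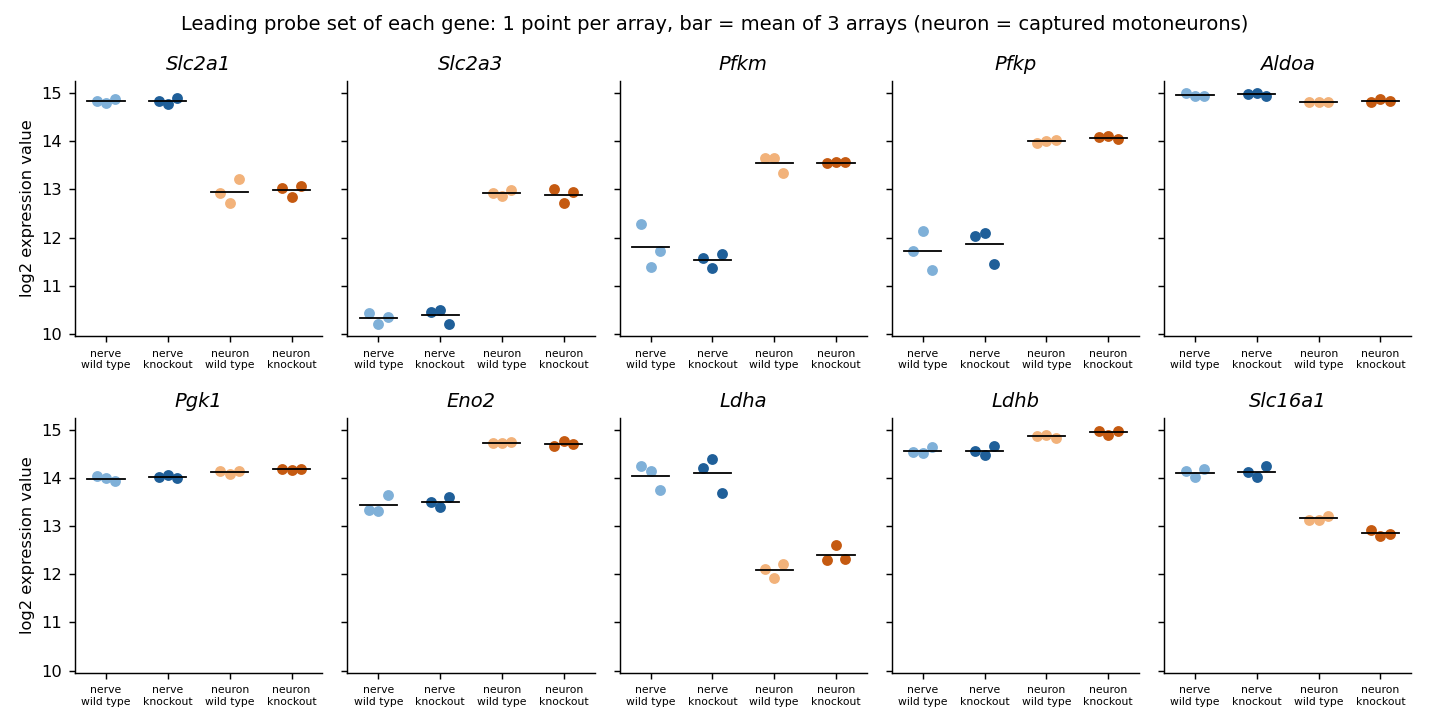
Log2 expression value of the leading probe set of each gene (vertical axis, shared by all panels) in the 4 groups (horizontal axis); each point is 1 array and each bar the mean of 3. Slc2a3, Pfkm, Pfkp and Eno2 sit higher in the motoneuron groups, and Slc2a1, Ldha and Slc16a1 sit higher in the nerve groups; within a tissue, Slc16a1 and Ldha in motoneurons are the genes whose genotype groups lie farthest apart without overlap.

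The glucose transporters showed the widest contrast. Slc2a1 (GLUT1), the transporter of vessels and glia, read 14.83, 14.80 and 14.88 in wild type nerve and 14.83, 14.77 and 14.90 in knockout nerve. In motoneurons it read 12.93, 12.72 and 13.21 in wild type and 13.03, 12.85 and 13.07 in the knockout. Every nerve array was above every motoneuron array, and the mean percentile was 99.5 in nerve and 95.5 in motoneurons. The difference, motoneurons minus nerve, was -1.88 in wild type (SE 0.12, adjusted p = 2.14e-06) and -1.84 in the knockout (SE 0.067, adjusted p = 3.9e-08). With medians centred it was -0.12 and -0.068 and did not pass (adjusted p 0.362 and 0.384), and after joint quantile normalization -1.38 and -1.34. A second probe set, 1434773_a_at, gave -1.67 and -1.77, which became 0.094 and 0.0074 with medians centred. The third, 1426600_at, gave -2.66 and -2.62, and stayed below 0 with medians centred, at -0.90 and -0.85.

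Slc2a3 (GLUT3), the high-affinity transporter of neurons, differed in the other direction. It read 10.44, 10.21 and 10.35 in wild type nerve and 10.45, 10.50 and 10.20 in knockout nerve. In motoneurons it read 12.92, 12.87 and 12.98 in wild type and 13.01, 12.71 and 12.95 in the knockout. No motoneuron array came near the nerve range, and the mean percentile was 70.6 in nerve and 95.3 in motoneurons. The difference was 2.59 in wild type (SE 0.11, adjusted p = 3.6e-07) and 2.51 in the knockout (SE 0.12, adjusted p = 1.59e-07), and it grew to 4.35 and 4.29 with medians centred and to 3.38 and 3.31 after joint quantile normalization. The probe set 1455898_x_at gave 2.81 and 2.67. The dimmer 1427770_a_at, between 3.71 and 6.48 on all arrays, gave 1.47 and 1.95. The dimmest, 1421924_at, between 4.16 and 5.25, went the other way in wild type (-0.58, adjusted p = 0.0179, and 0.0503 to 0.0606 without any 1 of 3 arrays) and read -0.033 in the knockout; both turned positive under the other scalings (1.18 and 1.74 with medians centred, 0.99 and 1.38 after joint quantile normalization).

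A shift shared by all probe sets of an array cancels in the ratio of 2 genes on that array. A ratio thus does not depend on a constant offset between the tissues. The offset was smaller among bright probe sets, so a ratio compared across tissues still depends in part on the scaling. Such a ratio says that the genes differed unequally, not which of them changed, and a ratio of 0 does not mean equal amounts of RNA. For 3 such pairs, tissue and genotype were compared in 9 tests. The log2 ratio of Slc2a1 over Slc2a3 lay between 4.27 and 4.70 on the 6 nerve arrays and between -0.15 and 0.24 on the 6 motoneuron arrays. The balance between these transporters thus differed by -4.41 on the log2 scale, or 21.3-fold, which was many times the spread within a tissue (exact two-sided permutation p = 0.00216, the smallest that 6 against 6 arrays allow; 0.00972 adjusted over the 9 tests). The difference was -3.75 when all probe sets of each gene were averaged and -4.70 after joint quantile normalization.

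**Figure D2:**
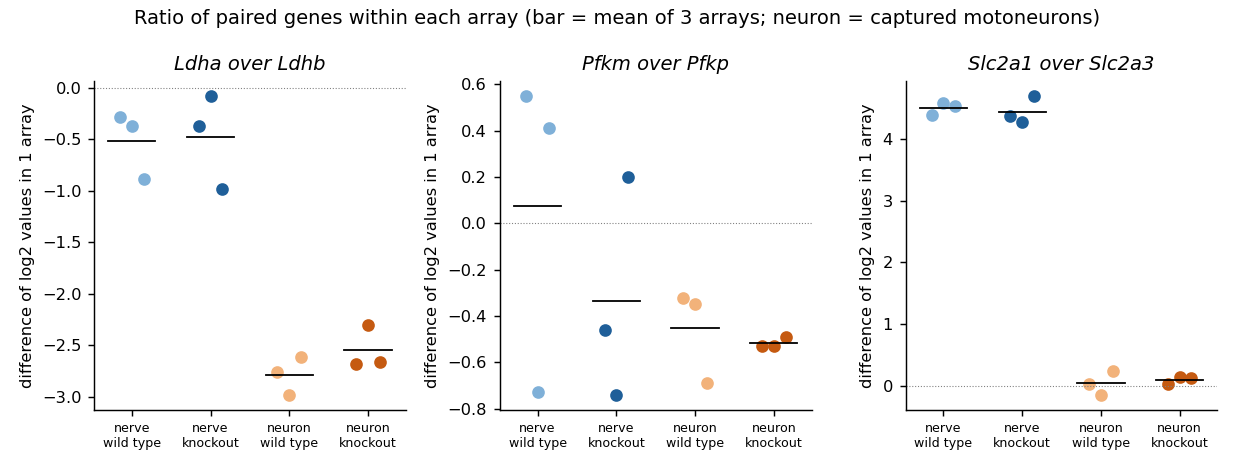
Difference of the log2 values of paired genes on the same array (vertical axis, its own scale in each panel) in the 4 groups; points are arrays, bars are means of 3, and the dotted line marks 0. Ldha over Ldhb and Slc2a1 over Slc2a3 separate nerve from motoneurons on every array, while the Pfkm over Pfkp ratio of the nerve arrays, from -0.74 to 0.55, covers that of all motoneuron arrays.

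Both phosphofructokinases, whose tetramers catalyse the committed step, were higher in motoneurons under all 3 scalings. Pfkm, the muscle isoform, read 12.28, 11.40 and 11.73 in wild type nerve and 11.57, 11.36 and 11.66 in knockout nerve. It read 13.65, 13.66 and 13.34 in wild type motoneurons and 13.55, 13.56 and 13.56 in knockout motoneurons. The 3 knockout motoneuron arrays nearly coincided, whereas the first wild type nerve array stood well above the others. The tissue difference was 1.75 in wild type (SE 0.21, adjusted p = 0.000112) and 2.03 in the knockout (SE 0.088, adjusted p = 9.36e-08).

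Pfkp, the platelet isoform, read 11.73, 12.13 and 11.32 in wild type nerve and 12.04, 12.10 and 11.46 in knockout nerve, against 13.97, 14.01 and 14.03 in wild type and 14.08, 14.10 and 14.05 in knockout motoneurons. Its spread was much wider in nerve (SD 0.40 and 0.35) than in motoneurons (SD 0.027 and 0.025, n = 3 each). The difference was 2.28 in wild type (SE 0.18, adjusted p = 9.46e-06) and 2.21 in the knockout (SE 0.15, adjusted p = 1.24e-06). Of its dimmer probe sets, 1430634_a_at gave 0.74 (adjusted p = 0.0337) and 0.93. The wild type value did not pass when any of 4 of the 6 arrays was left out (0.50 to 0.77, adjusted p 0.0665 to 0.102) or with array weights (0.57). The other, 1437759_at, between 4.67 and 7.10 on all arrays, gave -1.85 and -1.34 and did not pass with medians centred (-0.093 and 0.44) or after joint quantile normalization (0.032 and 0.49). The ratio of Pfkm over Pfkp averaged -0.49 ± 0.14 (SD, n = 6) in motoneurons and -0.13 ± 0.58 (SD, n = 6) in nerve, a difference of -0.36 that did not exceed the spread (exact permutation p = 0.175). It turned to 1.39 (exact permutation p = 0.00216) when the probe sets of each gene were averaged, which brings in the 2 dim probe sets of Pfkp.

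Pfkm varied between the nerve arrays partly in the order of the muscle markers. Muscle markers had a mean of 12.89, 7.97 and 11.48 on the wild type nerve arrays and of 10.11, 9.10 and 9.83 on the knockout nerve arrays, so the first wild type array was highest in both, and within each genotype the array numbered 2 was lowest in both. The order was not the same throughout: among the knockout arrays Pfkm was highest on the third and the markers on the first, and over all 6 arrays the lowest Pfkm (11.36, knockout) and the lowest markers (7.97, wild type) were on different arrays. The muscle markers were below the array median on the motoneuron arrays for 12 of 18 genes, with means between 6.22 and 6.42. The part of muscle RNA in the nerve level of Pfkm was not tested.

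**Figure D3:**
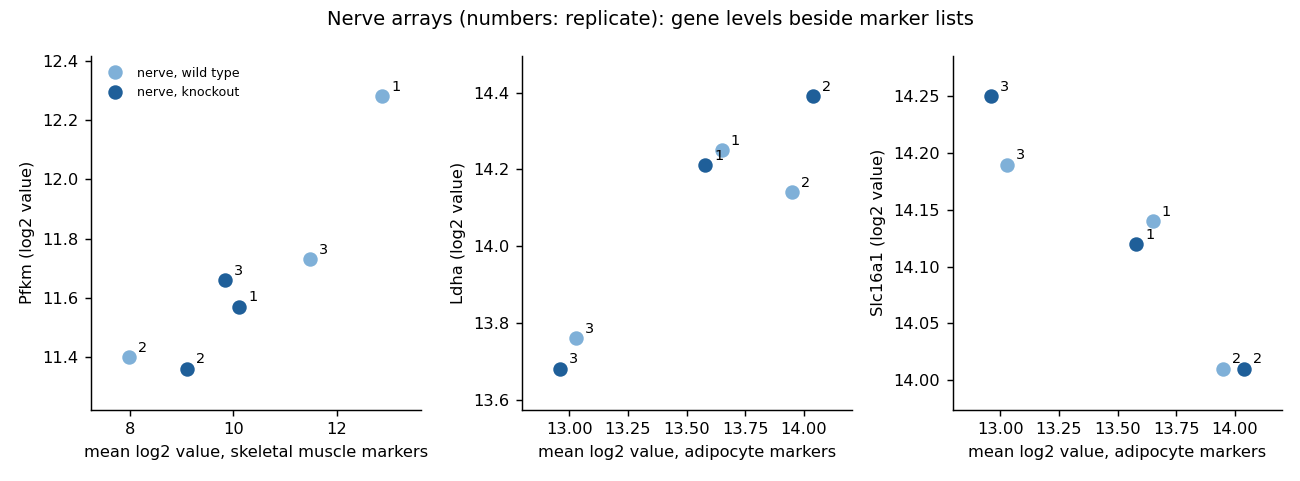
Log2 value of Pfkm against the mean log2 value of 18 skeletal muscle markers, and of Ldha and Slc16a1 against that of 4 adipocyte markers, on the 6 nerve arrays; colour gives the genotype and the number the replicate. Pfkm is highest where muscle markers are highest, and the arrays numbered 3 have the lowest adipocyte markers, the lowest Ldha and the highest Slc16a1 in both genotypes.

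The enzymes of the middle of the pathway lay near the top of the scale. Aldoa, which splits fructose bisphosphate, read between 14.93 and 15.01 on the nerve arrays and between 14.81 and 14.87 on the motoneuron arrays, where the brightest probe set of any kind reached 15.52 to 15.55 and 15.16 to 15.22. As deposited it was lower in motoneurons by a small amount, -0.15 in wild type (adjusted p = 0.00734) and -0.14 in the knockout (adjusted p = 0.00574), and neither passed without a mean trend (adjusted p = 0.254 for each). The direction turned to 1.61 and 1.64 with medians centred and to 0.33 and 0.35 after joint quantile normalization, and the mean percentile was 99.7 in nerve and 99.9 in motoneurons, so no direction can be given for Aldoa. Of its other probe sets, 1416921_x_at passed at -0.23 and -0.22 and the much dimmer 1447734_x_at at -1.27 and -1.21, both turning positive with medians centred, and the remaining 2 did not pass as deposited.

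Pgk1, which makes the first ATP of the pathway, read 14.04, 13.99 and 13.93 in wild type nerve and 14.14, 14.09 and 14.15 in wild type motoneurons. The groups did not overlap, but the difference was only 0.14 (SE 0.054, adjusted p = 0.0441), and it did not pass when any of 5 of the 6 arrays was left out (adjusted p 0.0635 to 0.125), nor without a mean trend (0.299), with the level of Xist as a covariate (0.0903) or with a replicate block (0.0776). In the knockout it read 14.02, 14.06 and 13.99 in nerve and 14.18, 14.17 and 14.19 in motoneurons, a difference of 0.16 (SE 0.041, adjusted p = 0.00612), which did not pass without a mean trend (adjusted p = 0.196). The other probe sets gave larger differences of 0.49 and 0.42 (1439435_x_at) and 0.58 and 0.34 (1438640_x_at). The last of these did not pass without a mean trend (adjusted p = 0.0508) or without the knockout motoneuron array numbered 3 (0.0524).

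Eno2, the neuronal enolase, read 13.34, 13.31 and 13.64 in wild type nerve and 13.50, 13.39 and 13.60 in knockout nerve. In motoneurons it read 14.72, 14.72 and 14.75 in wild type and 14.67, 14.76 and 14.70 in the knockout. Motoneurons were higher on every array, by 1.30 in wild type (SE 0.089, adjusted p = 3.8e-06) and 1.21 in the knockout (SE 0.059, adjusted p = 1.78e-07), and under all 3 scalings. Its mean percentile was 95.3 in nerve and 99.9 in motoneurons.

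**Figure D4:**
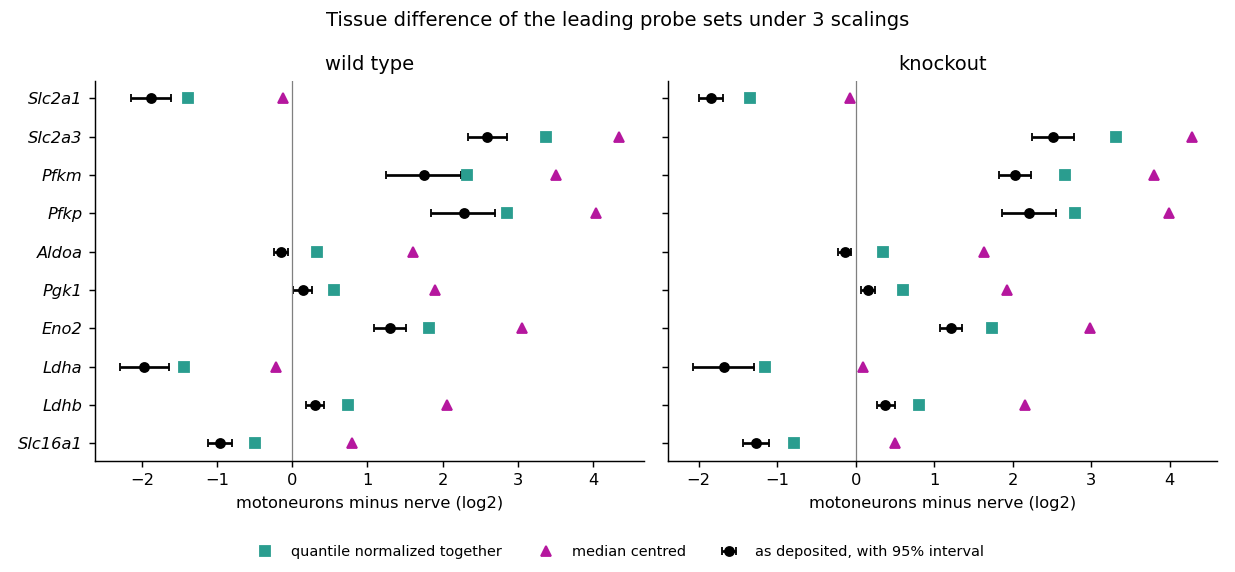
Tissue difference of the leading probe set of each gene, motoneurons minus nerve, on the log2 scale (horizontal axis) in wild type and knockout; black circles are the deposited values with the 95% interval of the fit, squares the values after joint quantile normalization and triangles those with medians centred. Slc2a3, Pfkm, Pfkp, Pgk1, Eno2 and Ldhb stay above 0 under all 3 scalings, whereas Aldoa and Slc16a1 cross 0 in both genotypes and Ldha in the knockout.

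The lactate dehydrogenase subunits differed between the tissues in opposite directions as deposited. Ldha read 14.25, 14.14 and 13.76 in wild type nerve and 14.21, 14.39 and 13.68 in knockout nerve. In motoneurons it read 12.12, 11.92 and 12.22 in wild type and 12.29, 12.61 and 12.32 in the knockout. Motoneuron arrays were all below nerve arrays, by -1.97 in wild type (SE 0.14, adjusted p = 4.94e-06) and -1.68 in the knockout (SE 0.17, adjusted p = 1.69e-05). With medians centred the difference did not pass, at -0.21 (adjusted p = 0.188) and 0.092 (adjusted p = 0.626), and after joint quantile normalization it was -1.44 and -1.16. The mean percentile was 97.7 in nerve and 91.9 in motoneurons.

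Ldhb read 14.54, 14.51 and 14.65 in wild type nerve and 14.57, 14.47 and 14.66 in knockout nerve. In motoneurons it read 14.88, 14.89 and 14.84 in wild type and 14.97, 14.90 and 14.98 in the knockout. Motoneurons were higher on every array, by 0.30 in wild type (SE 0.050, adjusted p = 0.000652) and 0.38 in the knockout (SE 0.051, adjusted p = 0.000107), and the other 3 probe sets gave 0.23 to 0.37 in wild type and 0.28 to 0.45 in the knockout. The smallest of these, 1448237_x_at, did not pass without a mean trend (adjusted p 0.111 and 0.0524). All 4 stayed positive under the other scalings. Like Aldoa, Ldhb lay close to the brightest values of the arrays.

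The ratio of Ldha over Ldhb was -0.28, -0.37 and -0.89 in wild type nerve, -0.37, -0.08 and -0.98 in knockout nerve, -2.76, -2.98 and -2.61 in wild type motoneurons and -2.68, -2.30 and -2.66 in knockout motoneurons. Every motoneuron array thus had a lower ratio than every nerve array, and the means differed by -2.17 on the log2 scale, or 4.5-fold (exact two-sided permutation p = 0.00216, the smallest possible; 0.00972 adjusted over the 9 tests). Leaving out each array in turn gave -2.27 to -2.09, and joint quantile normalization -2.08.

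The nerve arrays numbered 3 stood apart in both genotypes. They had the lowest Ldha and Pfkp of their groups and the highest Ldhb, Eno2, Slc2a1 and Slc16a1. They also had the lowest adipocyte markers, 13.03 and 12.96 against 13.58 to 14.04 on the other nerve arrays, and the highest Schwann cell markers, 14.30 and 14.29 against 14.00 to 14.13. The part of fat or Schwann cell RNA in these levels was not tested. Without these 2 arrays, an alternative chosen after seeing the data, the ratio of Ldha over Ldhb differed between the tissues by -2.39 (exact two-sided permutation p = 0.00952, 6 motoneuron against 4 nerve arrays, the smallest possible for these numbers).

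Slc16a1 (MCT1), a proton-coupled transporter of lactate, pyruvate and ketone bodies, read 14.14, 14.01 and 14.19 in wild type nerve and 14.12, 14.01 and 14.25 in knockout nerve. In motoneurons it read 13.13, 13.13 and 13.22 in wild type and 12.93, 12.79 and 12.84 in the knockout. As deposited, motoneurons were lower by -0.96 in wild type (SE 0.070, adjusted p = 5.71e-06) and -1.27 in the knockout (SE 0.073, adjusted p = 4.47e-07). The difference turned to 0.80 and 0.50 with medians centred and was -0.50 and -0.79 after joint quantile normalization. The mean percentile was 98.0 in nerve and 95.7 in motoneurons, so its rank within an array was lower in motoneurons while its distance from the median was larger. The dimmer 1446274_at gave -0.66 and -1.01, positive under both other scalings.

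Between genotypes, no probe set of the 10 genes passed in motoneurons, where 0 of all 45037 probe sets did (0.0%). At an unadjusted p under 0.05, 4 of the 27 (14.8%) were called, against 17.0% of all probe sets, and the groups did not overlap for 8 of the 27 (29.6%), 5 higher and 3 lower in the knockout, against 22.5% of all probe sets. These shares are near those of all probe sets. The 10 leading differences ran from -0.30 for Slc16a1 to 0.32 for Ldha, and for 7 of the 10 the 95% interval of the difference lay within 0.25 of 0. The share of all probe sets with such an interval was not computed, so the count is not a trait of these genes. Several of the 7, such as Aldoa, Ldhb and Eno2, lay near the top of the scale. What that does to their intervals was not tested.

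Slc16a1 had the smallest p of the 27 in motoneurons. Its 3 knockout arrays, 12.79 to 12.93, all lay below its 3 wild type arrays, 13.13 to 13.22, a difference of -0.30 (SE 0.062, 95% interval -0.45 to -0.16) with an unadjusted p of 0.00129 and an adjusted p of 0.115 in limma. It passed with array weights (-0.27, adjusted p = 0.033) and without the wild type array numbered 3 (-0.27, adjusted p = 0.0298), and not under the other alternatives (adjusted p up to 0.361). Without that array, 4646 of all probe sets passed. The second probe set gave -0.40 (SE 0.20, adjusted p = 0.362), with overlapping groups. In nerve the difference of the leading probe set was 0.011 (SE 0.080). The genotype effect in motoneurons minus that in nerve was -0.31 (SE 0.10, unadjusted p = 0.00984, adjusted p = 0.604), so the tissues were not shown to differ.

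Marker lists of other cell types were also compared between the genotypes on the motoneuron arrays, without a test. Of all 18193 genes, 8613 were lower in the knockout mean. The mean of 10 oligodendrocyte markers was 11.84, 11.24 and 11.43 in wild type and 11.43, 10.78 and 11.21 in the knockout. The groups overlapped, with all 10 genes lower in the knockout mean. The mean of 11 endothelial and mural markers was 6.60, 6.57 and 6.74 against 6.30, 6.33 and 6.24, with all 11 lower, and 7 of the 11 lay below the array median. The mean of 10 astrocyte markers differed by -0.29, with 4 of 10 higher, and that of 12 motoneuron markers by -0.09. The other glial lists had knockout means higher by 0.08 for 6 Schwann cell markers (4 of 6 higher) and by 0.09 for 8 macrophage and microglia markers (4 of 8 higher). Both were smaller than the SD within a group, which was 0.14 and 0.092 for the former and 0.26 and 0.16 for the latter. The leading probe set of Slc2a1, also a gene of vessels and glia, differed by 0.029 (95% interval -0.26 to 0.32). Its other probe sets differed by -0.14 (1434773_a_at, -0.34 to 0.05) and 0.06 (1426600_at, -0.28 to 0.4). The part of these cells in the level of Slc16a1 or Slc2a1 was not tested.

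Ldha was higher in knockout motoneurons on every array, 12.29 to 12.61 against 11.92 to 12.22, by 0.32 (SE 0.12, 95% interval 0.051 to 0.59), with an unadjusted p of 0.0255 and an adjusted p of 0.23 in limma. Ldhb was higher by 0.082 (SE 0.033, adjusted p = 0.273). The ratio of Ldha over Ldhb differed by 0.24 with overlapping groups (exact permutation p = 0.3, where 3 against 3 arrays allow no less than 0.1). Pgk1 was not uniform: the leading probe set read 0.058 higher, while 1438640_x_at read 0.27 lower (difference -0.27, SE 0.076, adjusted p = 0.154) and 1439435_x_at differed by -0.12 (adjusted p = 0.353), each without overlap between the groups. Pfkp was higher without overlap by 0.072 (SE 0.037, adjusted p = 0.377), as was a second probe set of Ldhb by the same 0.072 (SE 0.032, adjusted p = 0.31). The leading probe sets of Pfkm, Aldoa, Eno2, Slc2a1 and Slc2a3 differed by -0.032 to 0.029 with overlapping groups. Wider differences, also with overlapping groups, came from dimmer probe sets. They included 0.43 for 1430634_a_at of Pfkp (SE 0.26, adjusted p = 0.441) and 0.31 for 1427770_a_at of Slc2a3 (SE 0.35, adjusted p = 0.704). Further dim probe sets were 1437759_at of Pfkp at 0.15, 1421924_at of Slc2a3 at 0.12 and 1447734_x_at of Aldoa at 0.065.

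In sciatic nerve, 0 of the 27 probe sets passed (0.0% of all probe sets did), 0 had an unadjusted p under 0.05, against 2.31% of all, and the groups did not overlap for 1 of the 27 (3.7%), against 7.26% of all. That probe set was the dim 1421924_at of Slc2a3 (-0.43, SE 0.19). The leading differences ran from -0.27 for Pfkm (SE 0.22) to 0.14 for Pfkp (SE 0.24), and for 5 of the 10 the 95% interval lay within 0.25 of 0. The share of all probe sets with such an interval was not computed. The interval for Pfkm reached from -0.79 to 0.24, and its difference was -0.034 without the first wild type array, the array with the highest muscle markers, and -0.47 without the second, the one with the lowest. For Ldha the difference was 0.038 (95% interval -0.43 to 0.50) and for Ldhb 0.0011 (-0.15 to 0.15). The interaction between tissue and genotype passed for 0 of the 27 (0.0% of all), with 1 of the 27 at an unadjusted p under 0.05, against 7.54% of all.

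**Figure D5:**
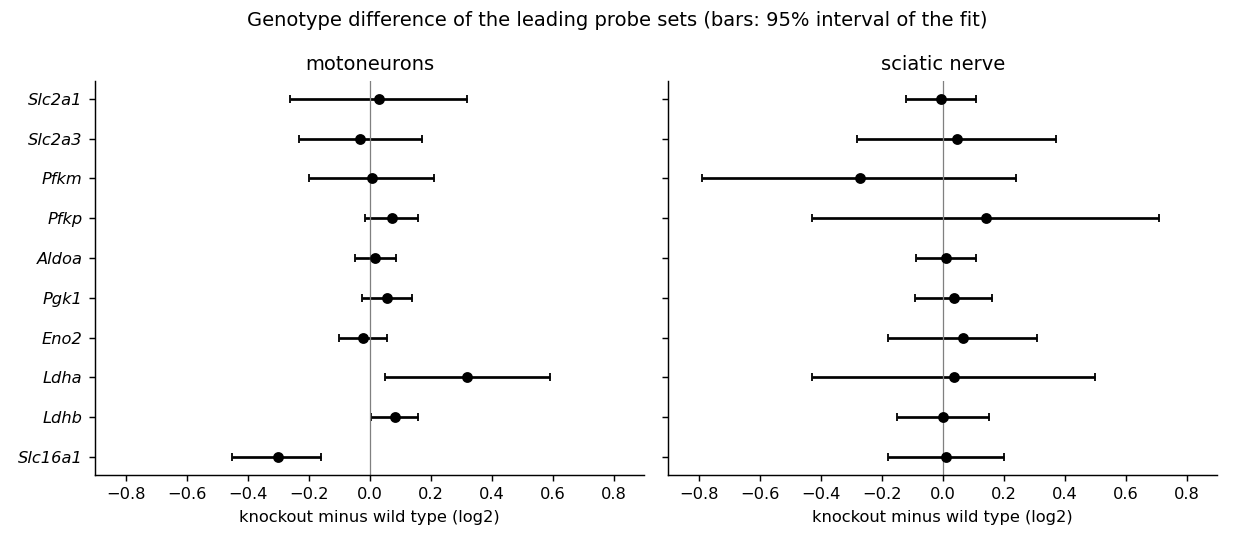
Genotype difference of the leading probe set of each gene, knockout minus wild type, on the log2 scale (horizontal axis) in motoneurons and in nerve; points are the fitted differences and bars the 95% interval. In motoneurons the interval of Slc16a1 (-0.45 to -0.16) lies below 0 and those of Ldha and Ldhb above it, before adjustment; in nerve all 10 intervals include 0, and those of Pfkm and Pfkp are the widest.

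The ratios of paired genes did not differ between genotypes beyond their spread. In motoneurons Pfkm over Pfkp differed by -0.066 and Slc2a1 over Slc2a3 by 0.061 (exact permutation p = 0.6 for each), and in nerve the differences were -0.41, -0.054 and, for Ldha over Ldhb, 0.037 (exact permutation p = 0.4, 0.7 and 0.9). None of these can fall below 0.1 with 3 against 3 arrays.

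The rest of the pathway was read from 6 gene lists with 1 probe set a gene, beside all 18193 genes, of which 17.7% passed as higher and 63.7% as lower in wild type motoneurons than in nerve as deposited, with a median difference of -0.90. With medians centred these became 61.2% and 20.0% (median 0.86), and after joint quantile normalization 43.1% and 30.6% (median 0.23), so the balance of calls in each list depends on the scaling and is given for all 3. Of 18 other glycolytic enzymes, 7 passed as higher and 10 as lower as deposited (median -0.65), 12 and 3 with medians centred (median 1.11) and 10 and 3 after joint quantile normalization (median 0.82). The brain aldolase Aldoc was higher by 3.78 and the hexokinase Hk2 lower by -6.40, and in both genotypes these kept their direction under all 3 scalings. The muscle enzymes Pgam2 and Eno3 differed by -5.05 and -4.89 in wild type and by -2.91 and -3.87 in the knockout, and both are genes of the muscle whose markers varied between nerve arrays.

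Of 11 other glucose transporters, 1 passed as higher and 5 as lower as deposited (median -0.47), 7 and 3 with medians centred (median 1.29) and 6 and 3 after joint quantile normalization (median 1.14). Slc2a4 (GLUT4), the insulin-responsive transporter of fat and muscle, was lower in motoneurons by -7.64 in wild type and -8.11 in the knockout, Slc2a10 by -6.02 and -5.38, and Slc2a12 by -3.36 and -2.69, while Slc2a6 was higher by 2.14 and 2.17. All 4 kept their direction under the other scalings. On the nerve arrays Slc2a4 was lowest where adipocyte markers were lowest, at 11.89 and 11.63 on the arrays numbered 3 against 12.65 to 13.20 on the others.

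Of 13 other genes listed under lactate transport and sensing, 4 passed as higher and 8 as lower as deposited (median -0.87), 6 and 2 with medians centred (median 0.89) and 5 and 3 after joint quantile normalization (median 0.37). The list takes in members of the Slc16a family such as Slc16a6 and Slc16a12, and whether each carries lactate was not examined. The lactate receptor Hcar1, known from fat cells, was lower in motoneurons by -6.33, and Slc16a12 by -4.69. Embigin (Emb), a chaperone of monocarboxylate transporters, was higher by 2.79, and Slc16a6 by 2.77. In the knockout, Hcar1, Slc16a12 and Slc16a6 differed by -6.10, -4.62 and 2.77, and Slc16a7 (MCT2), a high-affinity lactate transporter, by -2.80; all kept their direction under the other scalings.

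Of 8 regulators of phosphofructokinase and glycolytic flux, 3 passed as higher and 2 as lower as deposited (median 0.075), 7 and 1 with medians centred (median 1.83) and 6 and 1 after joint quantile normalization (median 1.01). As deposited, Tigar was higher by 2.18 and Pfkfb2 by 1.34, Epas1 lower by -3.54 and the dim Gckr by -1.14; the last turned to 0.62 with medians centred and 0.54 after joint quantile normalization. Of 17 genes of glycogen metabolism, 3 passed as higher and 9 as lower as deposited (median -0.72), 10 and 2 with medians centred (median 1.04) and 7 and 5 after joint quantile normalization (median -0.16). Those lower as deposited were led by the liver phosphorylase Pygl (-3.65), Gys2 (-3.05), Phkg1 (-2.38) and the muscle phosphorylase Pygm (-2.26). Of 13 hypoxia response genes, 2 passed as higher and 10 as lower as deposited (median -1.29), 6 and 3 with medians centred (median 0.47) and 3 and 6 after joint quantile normalization (median -0.30). Those lower as deposited were led by Ndrg1 (-3.95), P4ha1 (-3.51), Pdk1 (-2.62), whose product restrains pyruvate entry into mitochondria, and Mxi1 (-1.77, or -0.0087 with medians centred).

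Between genotypes no gene of these 6 lists passed, as no gene of the array did. The genes with the smallest unadjusted p of their lists in motoneurons included Nptn, a partner protein of monocarboxylate transporters, at -0.23 (adjusted p = 0.113), Gyg, which primes glycogen, at -0.32 (0.142), Vegfa at -0.58 (0.164), Pfkfb2 at -0.61 (0.166), Hif1a at -0.36 (0.174) and the liver phosphofructokinase Pfkl at 0.30 (0.174). In nerve all adjusted p were 1, with Pgk2 at -0.36, Eno4 at 0.58, Phkg1 at -0.69 and Pygm at -0.85 among those with the smallest unadjusted p of their lists.

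For each of the 10 genes, the genes with the most similar pattern over the 12 arrays were found as those with the smallest root mean square difference after each was centred on its own mean. For Slc2a1 these were Plekhb1 (0.053) and Csnk2a1 (0.078), and for Slc2a3 they were Nrxn2 and Stip1 (0.12 each). For Pfkp they were Septin4 (0.10) and Thy1 (0.11), and for Pfkm, less closely, Hoxd3 (0.18) and Sgip1 (0.20). For Ldha they were Eci1 (0.13) and Decr1 (0.14), for Ldhb Smim13 (0.048) and Sparcl1 (0.055), and for Slc16a1 Mtus1 (0.054) and Ralb (0.068). For Eno2 they were Spock2 and Ints6 (0.051 each), for Aldoa Tab3 (0.025) and Atp5a1 (0.031), and for Pgk1 Ndufb8 (0.041) and Nbdy (0.044). These values are on the log2 scale and rest mostly on the tissue difference, which all arrays of a tissue share.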

How the data were processed

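Each of 12 arrays, 3 to a group, received amplified material from 20 ng of RNA, per the labels. The authors deposited 1 log2 value a probe set (the scale was read from the values), made with Affymetrix Expression Console 1.1 per the submitters' processing notes. How probes were summarized is not given in the sources used here. From the values, the tissues were read as normalized apart, so tissue differences depend on the scaling. Precision is limited by the number of arrays, which have no read depth.

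Of 45101 probe sets, 64 controls were left out. Genes were named only from probe sets with 1 symbol (34945), updated through RefSeq GRCm38.p6. Fits used lmFit and eBayes (mean trend) of limma 3.58.1 under R 4.3.3. Tests were two-sided, and p-values were adjusted by Benjamini-Hochberg over all 45037 probe sets, with 0.05 as threshold. The fits were tested on simulated data with known log2 changes of 0.5, 1 and 2. Between genotypes, 8.96%, 43.3% and 92.4% of these were recovered in motoneurons, and 8.96%, 41.8% and 98.5% in nerve. For the interaction the shares were 1.49%, 14.9% and 65.2%. Small genotype differences can therefore go undetected. Ratios used exact permutation tests in Python 3.11.15.

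The genes, lists and tests were chosen with earlier results of these data known. All probe sets of the 10 genes were described; from each further list, up to 4 genes that passed with the largest difference were eligible, or up to 2 with the smallest p where none passed. Some list genes were not measured by a probe set with 1 symbol (6 of 24 other glycolytic enzymes). Alternatives were median centring, joint quantile normalization, brighter probe sets, no mean trend, array weights, all arrays in 1 fit, the level of Xist as a covariate, a replicate block and leaving out each array. A planned comparison of protein sequences was not made and proteins are not analysed here.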

Additional observations from a re-analysis of the deposited data

How the results depend on the processing

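Under other settings, the count of probe sets that passed between genotypes in motoneurons was 61 among brighter probe sets, 2929 with array weights and 828 with all arrays in 1 fit, and 0 to 4646 leaving out 1 array, the highest without the wild type array numbered 3. In nerve it was 1 with all arrays in 1 fit, and for the interaction 0 to 238 leaving out 1 array. Of the 27 probe sets, 1 (Slc16a1) passed in motoneurons with array weights, and 0 to 1 leaving out 1 array. Among brighter probe sets, 18336 passed between tissues in wild type and 19115 in the knockout. Pfkm over Pfkp became 1.39 with all probe sets averaged. The cause was not tested.

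Tissue differences that changed sign did so by the construction of the scaling. In wild type with medians centred, these were Slc16a1 at 0.80 and 1.1, Aldoa at 1.53, 1.70, 1.70, 1.61 and 0.49, Slc2a3 (1421924_at) at 1.18 and Slc2a1 (1434773_a_at) at 0.094; after joint quantile normalization, Aldoa at 0.27, 0.42, 0.42 and 0.33, Slc2a3 (1421924_at) at 0.99, Pfkp (1437759_at) at 0.032 and Slc16a1 (1446274_at) at 0.62. In the knockout with medians centred, they were Slc16a1 at 0.50 and 0.77, Aldoa at 1.55, 1.75, 1.73, 1.64 and 0.57, Ldha at 0.092, Slc2a3 at 1.74, Slc2a1 at 0.0074 and Pfkp at 0.44; after joint quantile normalization, Aldoa at 0.28, 0.46, 0.44 and 0.35, Slc2a3 at 1.38, Pfkp at 0.49 and Slc16a1 at 0.35.

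The replicate numbers were not taken to pair samples. Deviations of same-numbered arrays of the 2 genotypes correlated at 0.09, -0.064 and -0.079 in motoneurons and at 0.026, 0.31 and 0.22 in nerve. Differently numbered arrays gave -0.12 to 0.15 in motoneurons and -0.3 to 0.089 in nerve. The nerve arrays numbered 2 and 3 thus correlated above every differently numbered pair. Whether same-numbered nerve arrays share a factor was not tested. With a replicate block, 0 probe sets passed in each genotype comparison, and 24 of the 27 passed between tissues in each genotype, against 25 and 24 without it.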

Other observations

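Pgam2, the muscle form of phosphoglycerate mutase, varied between the nerve arrays. It read 13.58, 8.83 and 12.37 on the wild type nerve arrays and 10.30, 9.65 and 9.94 on the knockout nerve arrays, and between 6.38 and 7.33 in motoneurons. The order of the wild type arrays, with the first highest and the second lowest, was that of the 18 muscle markers, at 12.89, 7.97 and 11.48. Forms of wider expression varied less on the same arrays: Pgam1 read 13.31, 13.38 and 13.35 in wild type nerve, and Pkm, the pyruvate kinase of most tissues, 13.63, 13.61 and 13.48.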
